A study of Homo sapiens with 8 samples.

Results

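The 8 genes described here encode ATP-binding cassette (ABC) transporters of the plasma membrane and endomembranes that carry drugs, conjugates and other small molecules out of cells, namely ABCB1, ABCB6, ABCC1, ABCC2, ABCC3, ABCC4, ABCC5 and ABCG2. The set was chosen with earlier results of these data known. Its genes were found by name among 63241 genes in the tables of one cell line and 28043 in the table of the other. RNA had been sequenced from HCT116 and NCI-H716, both established lines of human colorectal cancer, as control cells and as cells given Z325 (ZINC000101867325, labelled Test), with 2 libraries per line and treatment and 8 in all. Each reaction held about 100 cells, amplified by SMART-Seq2, and the labels give neither a dose nor a treatment time for these libraries. All 8 transporters were listed for NCI-H716. For HCT116 the table ended on chromosome 9, so ABCB1, ABCB6, ABCC5 and ABCG2 were measured there, and ABCC1, ABCC2, ABCC3 and ABCC4, which lie on chromosomes 16, 10, 17 and 13, were not analysed here in that line.

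ABC transporters bind and split ATP at a pair of cytosolic nucleotide-binding domains and use that energy to move a substrate across the membrane. ABCB1 (P-glycoprotein) and ABCG2 (BCRP) export a wide range of hydrophobic drugs at the apical face of the gut epithelium, while the ABCC proteins (MRPs) export mainly organic anions, including conjugates with glutathione, glucuronate and sulphate. ABCC2 lies on the apical membrane and ABCC1 and ABCC3 on the basolateral membrane, ABCC4 and ABCC5 also carry cyclic nucleotides, and ABCB6 carries porphyrins. Raised levels of several of these genes are known from drug-resistant tumour cells, and several are known to be induced through NRF2, a factor that binds antioxidant response elements.

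Total counts per library ran from 3434620 to 13396225 in HCT116, where Z325 replicate 2 was the shallowest, and from 10210243 to 19738848 in NCI-H716. The HCT116 totals cover only the genes listed up to chromosome 9, so values scaled to library size are not on the same scale in the 2 lines. Of 15 epithelial markers, 9 were at a CPM (read counts scaled to a common library size) of 10 or more in every NCI-H716 library, and the 15 summed to 9143 to 9513 CPM in the controls and 10277 to 10399 CPM with Z325. Most of that sum was AGR2, a secreted-protein chaperone of the endoplasmic reticulum, with a mean of 8497 CPM in the controls and 9629 CPM with Z325. Of the 11 epithelial markers tested in NCI-H716, 4 had higher and 7 lower fitted values, 2 were above both controls and 6 below, the median log2 fold change was -0.24, and 0 passed in edgeR or DESeq2, with 1 at an unadjusted p under 0.05. In HCT116, 2 of the 8 listed epithelial markers were that high in every library, and the sums were 1468 to 1703 and 1662 to 1677 CPM. The epithelial factor ELF3 fell there from a mean of 14.1 to 2.58 CPM, by 2.34 on the log2 scale (adjusted p = 0.0205 in edgeR). Of 10 enteroendocrine markers, 6 reached 10 CPM in every NCI-H716 library, and the 10 had sums of 2871 to 3307 CPM in the controls and 2765 to 2791 CPM with Z325. The glucagon gene GCG made up most of that sum, with a mean of 2278 CPM in the controls and 1733 CPM with Z325. Of the 9 tested, 7 had higher and 2 lower fitted values, 5 were above both controls and 2 below, the median log2 fold change was 0.24, and 0 passed in edgeR. An unadjusted p under 0.05 was reached by 4 of the higher and 2 of the lower genes, and DESeq2 called 1 higher. The sums in HCT116 were 22.8 to 26.8 and 16.9 to 19.2 CPM. The immune, stromal and endothelial markers summed to at most 2.86 CPM in any HCT116 library and to 245 to 267 and 312 to 354 CPM in NCI-H716, where 8 of 10 were under 1 CPM in every library and PTPRC, the defining marker of leukocytes, was among them. There 1 of the 10 was at 10 CPM or more in every library. The 2 tested were COL3A1 and COL1A2. COL3A1 had a higher fitted value, with a log2 fold change of 0.39 and an unadjusted p under 0.05 in edgeR. COL1A2 had a lower one, of -1.59. The part of these markers in the values of the transporters was not tested.

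All gene positions are on GRCh38 with GENCODE v44. ABCB1 spans chromosome 7 from 87503017 to 87713323 and ABCB6 spans chromosome 2 from 219209772 to 219218994, both on the minus strand. ABCC1 spans chromosome 16 from 15949138 to 16143257, ABCC2 chromosome 10 from 99782640 to 99852594 and ABCC3 chromosome 17 from 50634777 to 50692253, all on the plus strand. ABCC4 spans chromosome 13 from 95019835 to 95301475, ABCC5 chromosome 3 from 183919934 to 184017939 and ABCG2 chromosome 4 from 88090150 to 88231628, all on the minus strand. ABCB6 was the only one of the 8 whose exons shared bases with another annotated gene.

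The promoter windows of ABCB6 and ABCC2 are shown because both genes had higher values in the Z325 libraries of NCI-H716 while their windows differed in the letters searched. Each window covers 250 bases before and 50 after a RefSeq start site on GRCh38.p14, 5′ to 3′ on the gene's strand, and capitals mark antioxidant response element cores (TGACNNNGC) and GC boxes (GGGCGG) on either strand. The ABCB6 window is chr2:219218909-219219208 on the minus strand and the ABCC2 window is chr10:99782390-99782689 on the plus strand.
ABCB6: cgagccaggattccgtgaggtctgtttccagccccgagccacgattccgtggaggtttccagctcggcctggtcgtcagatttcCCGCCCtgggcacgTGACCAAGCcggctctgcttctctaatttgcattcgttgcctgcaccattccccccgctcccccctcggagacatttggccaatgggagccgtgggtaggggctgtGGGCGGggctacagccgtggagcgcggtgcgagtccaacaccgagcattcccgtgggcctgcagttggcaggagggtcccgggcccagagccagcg
ABCC2: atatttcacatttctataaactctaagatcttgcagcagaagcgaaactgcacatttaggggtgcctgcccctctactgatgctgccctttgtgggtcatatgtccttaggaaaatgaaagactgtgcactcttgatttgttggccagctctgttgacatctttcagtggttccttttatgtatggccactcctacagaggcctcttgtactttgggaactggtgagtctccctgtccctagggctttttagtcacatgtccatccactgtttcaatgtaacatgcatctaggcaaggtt

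The ABCB6 window was 65.7% G or C and held an antioxidant response element core 152 bases before the start site, written TGACCAAGC, whose first letters are also part of an E-box (CACGTG) at 156 bases before it. It also held a GC box at 166 bases before the start on the opposite strand, another at 46 bases before on the gene's strand, and a CCAAT box at 73 bases before. The ABCC2 window was 45.0% G or C and held none of the 5 motifs searched on both strands, which were these 4 and the xenobiotic response element core GCGTG. Among all 34943 promoter windows of the same length, 13.3% held the antioxidant response element core, 44.9% a GC box, 34.6% a CCAAT box, 36.5% a GCGTG and 7.23% the E-box. In all, 6 of the 8 genes had windows, 11 together, and the antioxidant response element core was also present in the ABCC4 window, on the opposite strand 149 bases before the start, and in 1 of 5 ABCG2 windows. These matches describe letters only and were not tested as sites.

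In NCI-H716, ABCB6 was the transporter with the largest rise, 2.19-fold with Z325, and it was the only one of the 8 that passed an adjusted p under 0.05. The count model was edgeR's quasi-likelihood test with Benjamini-Hochberg adjustment over all 14142 genes tested, of which 0.502% passed this threshold in either direction and 0.403% passed it as higher. ABCC3, ABCC1 and ABCC2 were between 1.52-fold and 1.90-fold higher, and each had an unadjusted p under 0.05 without passing the adjusted threshold. With the replicate numbers entered as a block in edgeR, these genes passed too, with adjusted p from 4.1e-06 to 6.7e-04. That fit called 2397 of the 14142 genes tested, 1061 higher and 1336 lower. ABCB1, ABCC4, ABCC5 and ABCG2 had fitted folds between 0.819 and 1.21, with intervals that included no change. The 8 genes gave 4 with an unadjusted p under 0.05 in the higher direction, where 7.59% of all genes tested did so, and 0 in the lower direction, where 9.27% did. In either direction, 16.9% of all genes did.

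The ABCB6 level in NCI-H716, as CPM after TMM normalization, was 24.5 and 26.8 in the controls and 51.7 and 60.7 with Z325. Both Z325 libraries lay above both controls, and the gap between the groups exceeded the spread within either. The log2 fold change was 1.13 (SE 0.19, 95% confidence interval 0.71 to 1.56). In edgeR the unadjusted p was 0.000125 and the adjusted p was 0.0297, which placed the gene at rank 59 by p-value. Because bulk RNA was measured, more cells with the transcript and more transcript per cell cannot be told apart. The call was lost without control replicate 1 (log2 fold change 1.08, adjusted p = 0.212), and over the 14 alternatives tried the adjusted p ran from 1.6e-10 to 0.263 with the direction unchanged.

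ABCB6 shares 2841 exon bases, 54.6% of its own, with the readthrough gene ENSG00000284820 on the same strand, so the division of reads between them is an estimate. RSEM assigned 324 and 276 expected counts to ABCB6 in the NCI-H716 controls and 677 and 1207 with Z325. It assigned 258 and 156 to the readthrough gene in the controls and 233 and 337 with Z325. The share of the pair given to ABCB6 was 55.6% and 63.8% in the controls and 74.4% and 78.2% with Z325. The share was thus higher in both treated libraries, and the level of the readthrough gene, 19.5 and 15.1 CPM against 17.8 and 16.9 CPM, overlapped between the groups. With the reads of both genes summed, an alternative added after the data were seen, the log2 fold change was 0.77 (SE 0.17) and the adjusted p in edgeR was 0.0977, so the locus as a whole did not pass.

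ABCC3 (MRP3), a basolateral exporter of glucuronide and bile acid conjugates, was at 18.0 and 21.1 CPM in the NCI-H716 controls and at 39.2 and 35.4 CPM with Z325. The treated libraries lay well above both controls. ABCC3 had a log2 fold change of 0.93 (SE 0.20, 95% confidence interval 0.48 to 1.38), or 1.90-fold, with an unadjusted p of 0.000921 and an adjusted p of 0.0898 in edgeR. DESeq2 gave ABCC3 an adjusted p of 0.0172. On leaving out 1 library its log2 fold change in edgeR ran from 0.82 to 1.06. Over the alternatives that left out none, the adjusted p ran from 4.1e-06 with a replicate block in edgeR to 0.357 in limma.

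ABCC1 (MRP1), which exports glutathione conjugates and oxidized glutathione, was at 14.4 and 13.2 CPM in the NCI-H716 controls and at 23.7 and 25.1 CPM with Z325. Again both treated libraries were above both controls and the spread within each group was small. Its log2 fold change was 0.82 (SE 0.21), or 1.77-fold with a 95% confidence interval of 1.27-fold to 2.46-fold, with an unadjusted p of 0.00314 and an adjusted p of 0.128 in edgeR. On leaving out 1 library the log2 fold change in edgeR ran from 0.77 to 0.89. Over the alternatives that left out none, the adjusted p ran from 6.3e-04 with a replicate block in edgeR to 0.388 in limma.

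ABCC2 (MRP2), the apical exporter of glutathione and glucuronide conjugates, was at 44.5 and 44.2 CPM in the NCI-H716 controls and at 66.7 and 67.9 CPM with Z325. The libraries of each group lay close together and the groups were apart. ABCC2 had a log2 fold change of 0.60 (SE 0.17, 95% confidence interval 0.22 to 0.98), or 1.52-fold, with an unadjusted p of 0.00535 and an adjusted p of 0.157 in edgeR. On the log2(FPKM + 1) scale in limma the difference was 0.27 with an adjusted p of 0.611, and over the 12 alternatives the adjusted p ran from 6.7e-04 to 0.729. FPKM (fragments scaled to transcript length and library size) divides by an effective length that RSEM derives from its estimate of gene length, which was 2340 to 2972 bases in the controls and 3049 to 3472 bases with Z325 for ABCC2, so the length estimate moved with the group.

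The multidrug exporter ABCB1 was at 51.0 and 52.9 CPM in the NCI-H716 controls and at 54.1 and 66.9 CPM with Z325. Both treated libraries were higher, replicate 1 only slightly. A log2 fold change of 0.22 (SE 0.18, 95% confidence interval -0.18 to 0.63) was fitted, with an adjusted p of 0.572 in edgeR, and it was 0.38 without Z325 replicate 1 and 0.07 without Z325 replicate 2. ABCC5 (MRP5), a carrier of cyclic nucleotides and nucleotide analogues, was at 13.6 and 14.4 CPM in the controls and at 18.6 and 15.4 CPM with Z325. The groups were apart on this scale but overlapped in FPKM. Its log2 fold change was 0.27 (SE 0.23, 95% confidence interval -0.24 to 0.78) with an adjusted p of 0.588 in edgeR, and was 0.14 without Z325 replicate 1 and 0.42 without Z325 replicate 2.

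ABCC4 (MRP4), which exports cyclic nucleotides and prostaglandins, was at 23.7 and 31.7 CPM in the NCI-H716 controls and at 29.9 and 32.4 CPM with Z325, so the groups overlapped. Its log2 fold change was 0.17 (95% confidence interval -0.30 to 0.64, adjusted p = 0.726 in edgeR) and was -0.02 without control replicate 1 and 0.41 without control replicate 2. ABCG2, at 11.1 and 15.0 CPM in the controls and 12.0 and 9.45 CPM with Z325, was the only one of the 8 with a negative fitted value in NCI-H716. Its groups overlapped too, and the log2 fold change of -0.29 (95% confidence interval -0.88 to 0.31) had an adjusted p of 0.624 in edgeR. It was -0.49 without control replicate 1 and -0.05 without control replicate 2. In all, 6 of the 8 transporters had both Z325 libraries above both controls in NCI-H716, where 24.3% of all genes tested did, and 0 had both below, where 25.1% did. The median log2 fold change of the 8 was 0.44, beside -0.01 over all genes tested. Since the set was chosen with earlier results of these data known, these shares and the median are descriptions only.

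**Figure D1:**
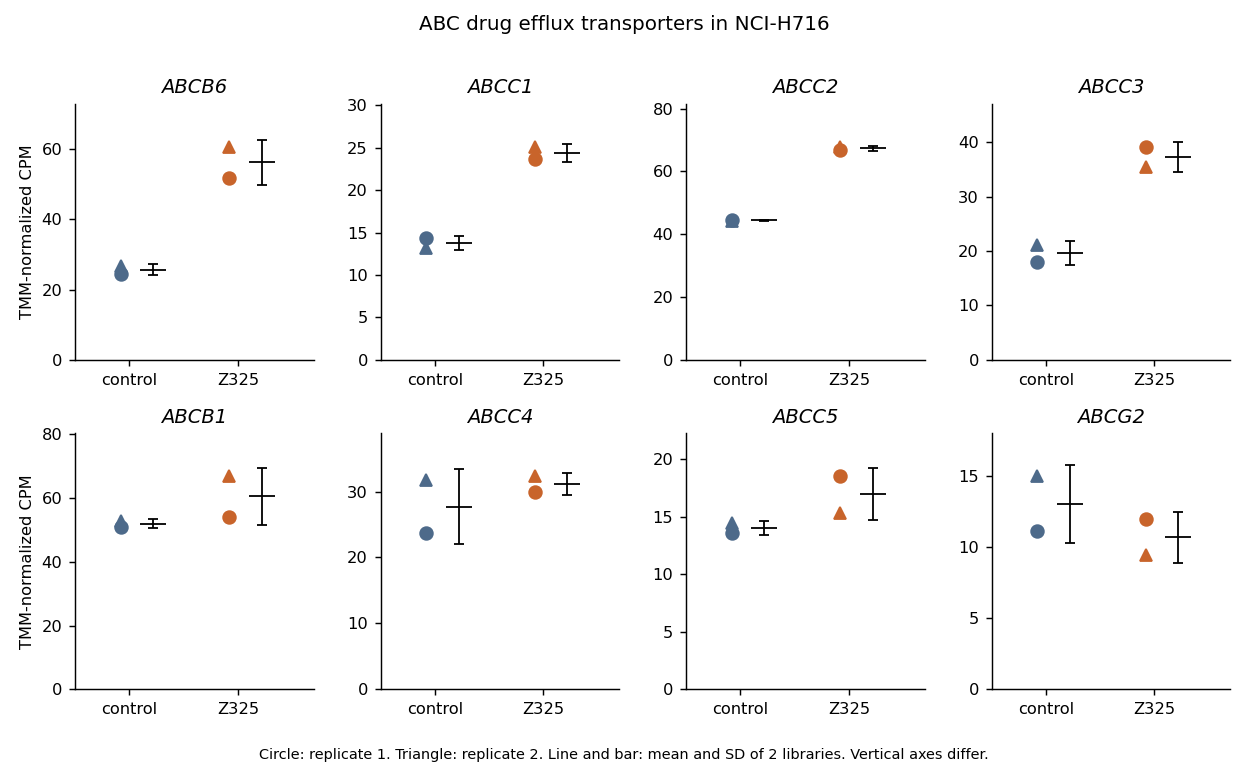
Level of each of the 8 transporters in the 4 NCI-H716 libraries, as TMM-normalized CPM on a linear axis from 0 that differs between panels, with circles for replicate 1, triangles for replicate 2, and a line and bar for the mean and SD of 2 libraries. ABCB6, ABCC1, ABCC2 and ABCC3 in the upper row show treated libraries well apart from the controls, ABCB6 at 51.7 and 60.7 CPM against 24.5 and 26.8 CPM, while ABCC4 and ABCG2 in the lower row overlap.

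In HCT116, 0 of the 4 transporters listed passed an adjusted p under 0.05 in edgeR, where 5.78% of 6491 genes tested did, and 0 had an unadjusted p under 0.05, where 23.9% did. limma on log2(FPKM + 1) called 0 of the 4, and 47 of the 6491 genes tested. DESeq2 called 0 of the 3 to which it gave an adjusted p, all but ABCB6, and 709 of 14822 genes fitted. ABCB6 passed the filter on low counts only through the Z325 group and is left out of the shares that follow. Of the other 3, ABCB1 and ABCC5 had both Z325 libraries below both controls, as 29.0% of all genes tested did, and 0 had both above, as 24.8% did.

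ABCB1 in HCT116 had 90 and 71 counts in the controls and 50 and 12 with Z325, or 6.51 and 5.45 CPM against 3.91 and 3.44 CPM. The treated libraries were lower in CPM, with the 12 counts coming from the shallow Z325 replicate 2. Its log2 fold change was -0.69 (SE 0.43, 95% confidence interval -1.68 to 0.31), with an adjusted p of 0.382 in edgeR, and was -0.59 without that library.

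ABCC5 in HCT116 had 309 and 306 counts in the controls and 164 and 61 with Z325, or 22.3 and 23.5 CPM against 12.8 and 17.5 CPM. The controls lay close together and both treated libraries below them. ABCC5 had a log2 fold change of -0.62 (SE 0.29, 95% confidence interval -1.28 to 0.05), with an unadjusted p of 0.0655 and an adjusted p of 0.239 in edgeR, and one of -0.81 without Z325 replicate 2 or -0.41 without Z325 replicate 1. Over the 13 alternatives its adjusted p ran from 0.0903 to 0.636.

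ABCG2 in HCT116 had 441 and 276 counts in the controls and 375 and 131 with Z325, or 31.9 and 21.2 CPM against 29.3 and 37.5 CPM. The groups overlapped, and the spread between the controls was wider than the distance between the group means. A log2 fold change of 0.32 (95% confidence interval -0.33 to 0.98, adjusted p = 0.553 in edgeR) was fitted, which was 0.05 without control replicate 2 and 0.65 without control replicate 1.

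ABCB6 in HCT116 had 4 and 4 counts in the controls and 12 and 4 with Z325, or 0.289 and 0.307 CPM against 0.938 and 1.15 CPM. Its counts were near the limit of detection in all 4 libraries. Its log2 fold change of 1.74 had a 95% confidence interval from -0.71 to 4.19 and an adjusted p of 0.370 in edgeR, so neither a rise nor a fall could be resolved with so few counts. On the log2(FPKM + 1) scale in limma the difference was 0.18. The readthrough gene that shares its exons had 0 and 2 counts in the controls and 0 and 0 with Z325. How reads over the shared 54.6% of ABCB6 exon bases were counted in HCT116 is not given in the sources used here. The low counts of both genes there are therefore uncertain.

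**Figure D2:**
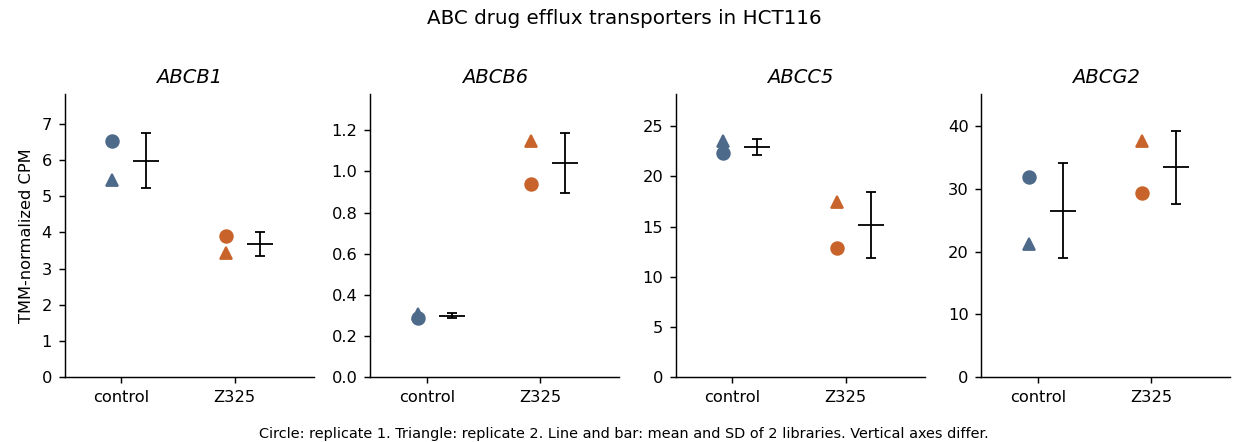
Level of the 4 transporters listed for HCT116 in its 4 libraries, as TMM-normalized CPM on a linear axis from 0 that differs between panels, with circles for replicate 1, triangles for replicate 2, and a line and bar for the mean and SD of 2 libraries. ABCB1 and ABCC5 lie lower with Z325, ABCG2 overlaps, and ABCB6 is near 1 CPM or below throughout.

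Whether Z325 acted differently on a transporter in the 2 lines was tested with an interaction term for line and treatment in a fit of all 8 libraries, for the 4 transporters listed in both. For ABCB1 the NCI-H716 effect exceeded the HCT116 effect by 0.88 on the log2 scale (SE 0.33, 95% confidence interval 0.16 to 1.60), with an unadjusted p of 0.0214 and an adjusted p of 0.262 in edgeR. For ABCC5 the difference was also 0.88 (SE 0.37, 95% confidence interval 0.08 to 1.69), with an unadjusted p of 0.0347 and an adjusted p of 0.307 in edgeR. Both genes had lower fitted values with Z325 in HCT116 and higher ones in NCI-H716. For ABCG2 and ABCB6 the differences were -0.62 and -0.57, with adjusted p of 0.519 and 0.696 in edgeR. ABCB6 rests on at most 12 counts in an HCT116 library. Of the other 3, 0 passed the adjusted threshold, which 0.0654% of 7642 genes did, and 2 had an unadjusted p under 0.05, which 14.3% did.

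**Figure D3:**
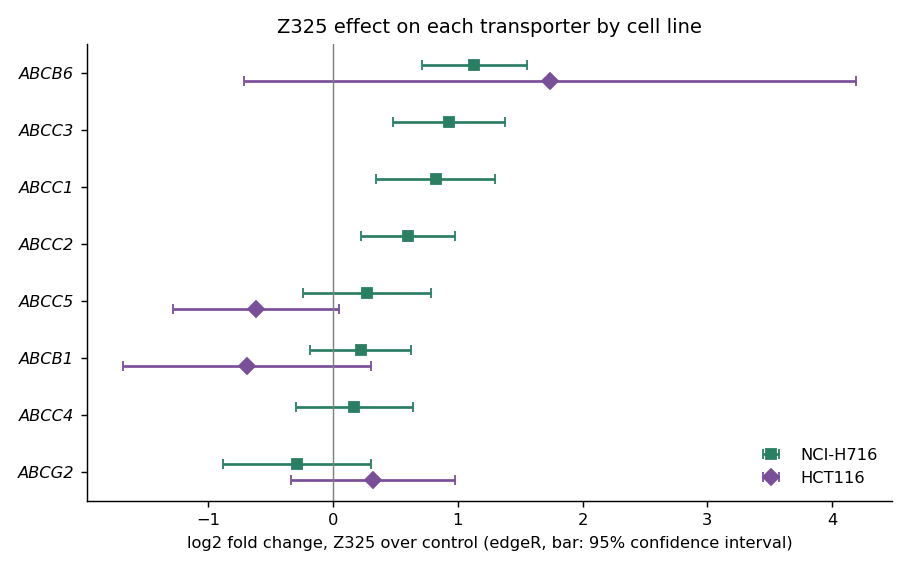
Log2 fold change of Z325 over control for each transporter from edgeR, with squares for NCI-H716, diamonds for HCT116 and bars for the 95% confidence interval. In NCI-H716 the intervals of ABCB6, ABCC3, ABCC1 and ABCC2 lie above 0, and in HCT116 all 4 intervals include 0, that of ABCB6 running from -0.71 to 4.19.

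The order of levels among the transporters was read per length, as FPKM. In the NCI-H716 controls the mean FPKM was highest for ABCB6 at 41.1, then 30.0 for ABCB1, 18.6 for ABCC2 and 12.1 for ABCC3. It was 6.56 for ABCC5, 5.23 for ABCC4, 5.14 for ABCC1 and 3.59 for ABCG2. The neighbours ABCC5 and ABCC4 overlapped, as did ABCC4 and ABCC1, and the other neighbours did not. RSEM's length for ABCB6 was only 765 to 927 bases across the 4 libraries, shorter than for the other transporters, which were all at 1723 bases or more, so the first place of ABCB6 rests on that estimate and on the division of reads with its readthrough gene.

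With Z325 the mean FPKM in NCI-H716 was 108 for ABCB6, 34.6 for ABCB1, 22.6 for ABCC2 and 21.6 for ABCC3. It was 8.83 for ABCC1, 7.65 for ABCC5, 5.88 for ABCC4 and 2.95 for ABCG2. ABCC3 then overlapped with ABCC2 and ABCC1 stood above ABCC5 and ABCC4, its neighbour ABCC5 overlapping with it. In HCT116 the order was ABCG2 at 4.82, ABCC5 at 2.04, ABCB1 at 0.945 and ABCB6 at 0.058 in the controls, and 5.90, 1.32, 0.563 and 0.198 with Z325, with no overlap between neighbours. Among these 4 genes ABCG2 stood last in NCI-H716 and first in HCT116, and ABCB6 stood first in NCI-H716 and last in HCT116. The place of ABCB6 in HCT116 is uncertain too, since the handling of reads shared with its readthrough gene is not given for that line. The tables of the lines use different length definitions and were made separately. The HCT116 totals also cover only the genes listed up to chromosome 9, so the levels are set side by side without a test.

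**Figure D4:**
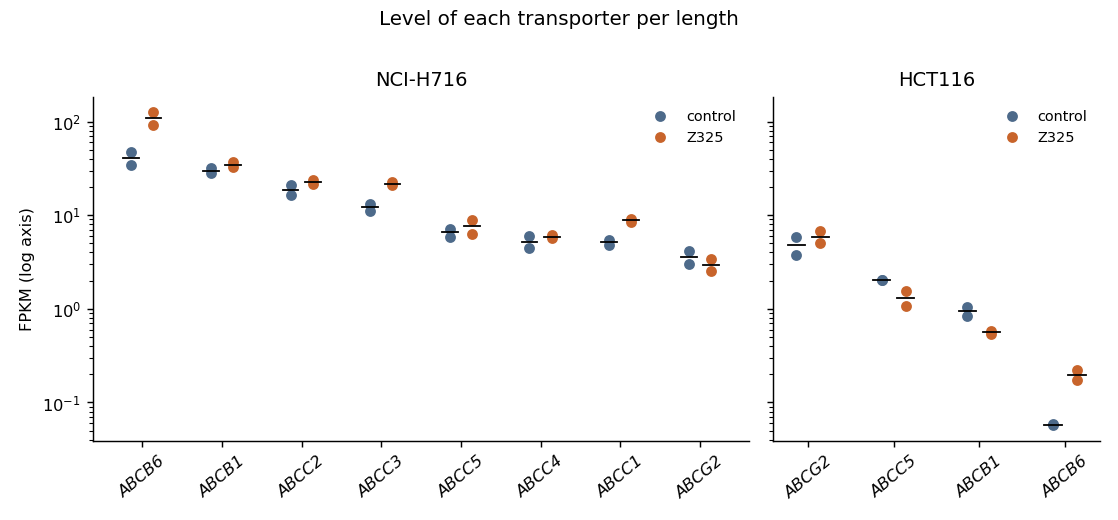
FPKM of each transporter on a log axis in every library, control and Z325 side by side, with a short line at the mean of 2 libraries, for NCI-H716 and HCT116. ABCB6 leads in NCI-H716 at 41.1 and 108 and is last in HCT116 at 0.058 and 0.198, and ABCG2 goes from last to first.

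The other ABC transporters served as the nearest comparison. Of the 40 on that list, 22 were tested in NCI-H716, of which 7 had higher and 15 lower fitted values, with a median log2 fold change of -0.15. None passed in edgeR, DESeq2 or limma, and 0 in the higher and 4 in the lower direction had an unadjusted p under 0.05. The smallest p-values belonged to ABCG1, a cholesterol exporter, at 8.93 ± 0.53 CPM in the controls and 4.60 ± 0.03 with Z325 (SD, n = 2 and 2), to ABCF3, and to ABCC6, whose reads can be divided with near-identical pseudogenes. Their log2 fold changes were -0.95, -0.84 and -1.02, with adjusted p of 0.174, 0.205 and 0.206 in edgeR. Both Z325 libraries lay above both controls for 2 of the 22 and below them for 10, while the drug exporters gave 6 and 0 of 8. The lists cut across the ABCC family, since the other list held further ABCC genes. Of those tested, ABCC6 and ABCC10 lay below both controls and ABCC8 overlapped. ABCC10 had a log2 fold change of -0.37 (adjusted p = 0.516 in edgeR) and ABCC8 one of 0.08. The difference between the lists was not tested.

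In HCT116, 9 of the other ABC transporters were tested, 1 with a higher and 8 with a lower fitted value, and the median log2 fold change was -0.58. ABCF2, a cytosolic ABC protein without membrane domains, fell from 67.9 ± 10.7 to 31.5 ± 0.85 CPM (SD, n = 2 and 2), a log2 fold change of -1.11 (SE 0.22, adjusted p = 0.0263 in edgeR). Its counts are uncertain because 37.1% of its exon bases also belong to the readthrough gene ABCF2-H2BK1, and its call was lost without control replicate 1 (adjusted p = 0.118 in edgeR) or 2 (0.286). ABCB8, a mitochondrial transporter, and ABCD3, a peroxisomal one, had log2 fold changes of -1.32 and -0.63 with adjusted p of 0.0804 and 0.114 in edgeR. The log2 fold change of ABCB8 was -1.61 without Z325 replicate 1 and -1.12 without Z325 replicate 2, and that of ABCD3 was -0.88 without Z325 replicate 2.

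**Figure D5:**
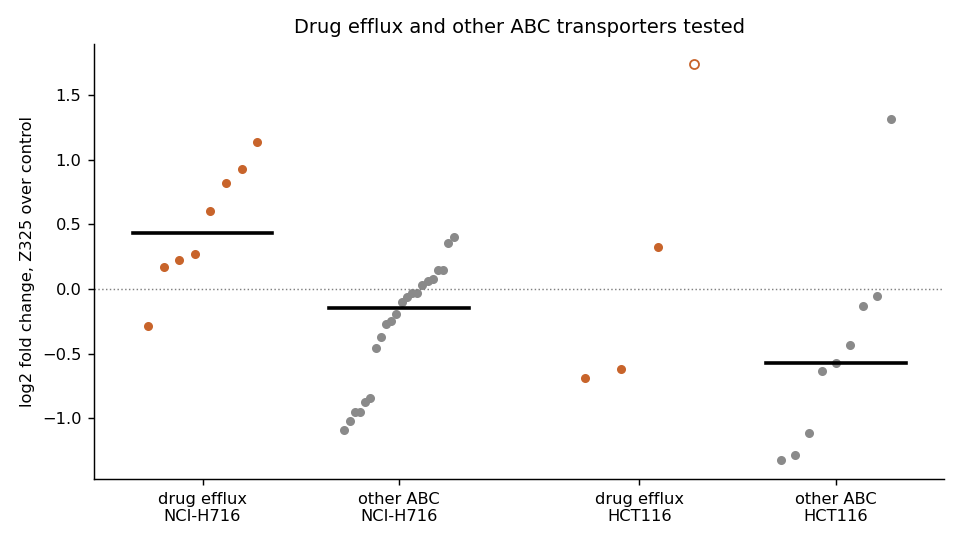
Log2 fold change of Z325 over control for the ABC transporters tested, 1 point per gene, with the drug exporters beside the other ABC transporters in each line and a bar at the median of each list but the 4 drug exporters in HCT116, where the open circle is ABCB6 at no more than 12 counts. The medians are 0.44 for the drug exporters and -0.15 for the others in NCI-H716, and -0.58 for the others in HCT116.

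Conjugating enzymes and glutathione supply make conjugates that ABCC exporters carry. The list of these genes also held redox enzymes that do neither, among them TXNRD1, SRXN1 and NQO1. Of its 26 genes, 21 were tested in NCI-H716, and at an adjusted p under 0.05 edgeR called 6 higher and 0 lower. DESeq2 called 7 higher and 1 lower, and limma on log2(FPKM + 1) called 0. The 6 in edgeR were SLC7A11, the cystine importer, with a log2 fold change of 2.25, GCLM, the modifier subunit of glutamate-cysteine ligase, with 2.04, TXNRD1, a thioredoxin reductase, with 1.66, UGDH, which makes UDP-glucuronate, with 1.33, SRXN1 with 1.31 and the quinone reductase NQO1 with 1.22. The adjusted p of the 6 in edgeR ran from 0.000404 for SLC7A11 to 0.0244 for SRXN1, whose counts are uncertain because 90.7% of its exon bases are shared with another gene. Antisense genes overlap between 8.97% and 19.4% of the exons of SLC7A11, UGDH and NQO1, and the strand setting of the counting is not given in the sources used here. Without control replicate 1, UGDH, NQO1 and SRXN1 had adjusted p of 0.0534, 0.0728 and 0.176 in edgeR, and NQO1 had 0.0540 without control replicate 2. In HCT116, edgeR and DESeq2 each called 4 of 10 tested higher and 0 lower, and limma called 2 higher. Those in edgeR rose, namely SLC7A11 by 2.66, GCLM by 1.79, GCLC by 1.73 and UGDH by 0.88 on the log2 scale, with adjusted p from 0.000331 to 0.0134 in edgeR. GCLC and UGDH no longer passed there without control replicate 1 (0.0527 and 0.132) or 2 (0.0877 and 0.0949). The median log2 fold change of the list was 0.45 in NCI-H716 and 0.37 in HCT116.

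Among 28 drug uptake carriers and non-ABC efflux genes, 16 were tested in NCI-H716 and 0 passed in edgeR, with 8 higher and 8 lower. MVP, the major vault protein, was at 18.2 ± 0.99 CPM in the controls and 36.7 ± 3.03 with Z325 (SD, n = 2 and 2), with a log2 fold change of 1.01 and an adjusted p of 0.0665 in edgeR. Its log2 fold change was 1.10 without Z325 replicate 1. At an unadjusted p under 0.05, 1 of the 16 was higher and 2 were lower, and DESeq2 called 1. In HCT116, 1 of 4 tested passed, SLC29A1, the equilibrative nucleoside importer, which fell from 154 ± 39.2 to 47.3 ± 17.0 CPM (SD, n = 2 and 2) by 1.73 on the log2 scale (SE 0.28, adjusted p = 0.0142 in edgeR). That call was lost without control replicate 1 (0.0506) or 2 (0.168). In NCI-H716 the log2 fold change of SLC29A1 was -0.66 with an adjusted p of 0.161 in edgeR, and it was -0.76 without Z325 replicate 1.

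Of 32 transcription regulators known to act on efflux genes, 28 were tested in NCI-H716 and 1 passed, the fatty acid sensor PPARA, which rose from 5.88 ± 0.60 to 16.0 ± 2.57 CPM (SD, n = 2 and 2) by 1.45 on the log2 scale (SE 0.27, adjusted p = 0.0494 in edgeR). PPARA had 0.267 without control replicate 1. CEBPB and BACH1, a repressor at antioxidant response elements, had log2 fold changes of 1.50 and 0.98 with adjusted p of 0.0760 and 0.114 in edgeR. Without Z325 replicate 1 the log2 fold changes were 1.80 and 1.13. An antisense gene overlaps 12.6% of the CEBPB exons. In HCT116, 0 of 11 passed in edgeR, 2 had an unadjusted p under 0.05, and DESeq2 called 1. The zinc finger factor EGR1 came nearest there, with a log2 fold change of 1.17 and an adjusted p of 0.0583 in edgeR. Its log2 fold change was 0.96 without Z325 replicate 1 and 1.35 without Z325 replicate 2. Of 8 proteins that anchor or traffic the exporters, 6 were tested in NCI-H716 and 0 passed in edgeR or DESeq2, with 3 at an unadjusted p under 0.05. In HCT116, 1 of 2 passed, CAV1, the caveolar scaffold protein, which fell by 0.75 on the log2 scale (SE 0.13, adjusted p = 0.0159 in edgeR) from 4335 to 2575 CPM, a call lost without control replicate 1 (0.125) or 2 (0.197).

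The genes whose pattern over the 4 libraries was most like that of ABCB6 in NCI-H716, by root mean square difference of centred log2(CPM + 1) among 7840 genes at 10 CPM or more, were PHGDH at 0.017, ITPR1 at 0.029 and GSTA1 at 0.039. PHGDH, the first enzyme of serine synthesis, was at 121 and 136 CPM in the controls and 253 and 294 CPM with Z325. Those of ABCC5 in HCT116, among 3793 genes, were NDC1 at 0.033, INTS7 at 0.041 and EYA3 at 0.042. NDC1, a nuclear pore protein, was at 290 and 286 CPM in the controls and 164 and 217 CPM with Z325. With only 4 libraries the likeness is a description, and close paralogs of GSTA1 make its counts uncertain.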

How the data were processed

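RNA-seq libraries were made by SMART-Seq2. For NCI-H716 the authors deposited RSEM gene tables aligned to GRCh38, which give TPM, FPKM and expected counts. TPM was not used. For HCT116 the authors deposited raw read counts with gene lengths in the featureCounts layout, and the table used here ends on chromosome 9. The submitters' processing notes list Bowtie2 2.5.0 and featureCounts, and the study's methods name STAR and RSEM. Of the lines in the count table, 4 were broken and left out. HCT116 FPKM were computed here from counts, exon lengths and listed totals.

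Expected counts were rounded. Each line was fitted alone in edgeR 4.0.16 (R 4.3.3) with TMM, filterByExpr, the quasi-likelihood test and Benjamini-Hochberg adjustment over all genes tested. SE and intervals (95%) came from the fit. The interaction used 7642 genes listed in both tables. In place of the study's two-tailed test on FPKM, limma 3.58.1 on log2(FPKM + 1) was an alternative, as were DESeq2 1.42.0, other filters and scalings, a replicate block and leaving out each library. The steps were tested on simulated data. Only the study's text says that the 2 replicates were biological, so p-values measure the spread between these libraries, which may be technical. With 2 against 2, an exact permutation test cannot go below p = 0.333.

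The members and lists were chosen with earlier results of these data known. Named were all 8 members, in each list up to 8 genes at an adjusted p under 0.05 in either line or, where under 3 passed, the 3 with the smallest p per line, and the 3 genes most like the leading member of each line. Some genes that this rule selects are given only in counts.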

Additional observations from a re-analysis of the deposited data

How the results depend on the processing

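At an adjusted p under 0.05 in HCT116, edgeR called 375 genes, DESeq2 709, edgeR without a filter 683, edgeR with at least 10 counts in every library 615, limma on log2(FPKM + 1) 47, on log2(FPKM + 0.1) 37, and on genes at a mean FPKM of at least 1 35. Leaving out each library gave 23 to 1076, 23 without control replicate 2 and 1076 without Z325 replicate 2. In NCI-H716, edgeR called 71 (57 higher and 14 lower), DESeq2 316 (162 and 154), library size alone 99 (71 and 28), no filter 777 (290 and 487), limma 6, 6 and 8 in the same order, and the fit of all 8 libraries 19. Leaving out each library gave 38 to 1386, 38 without control replicate 1 and 1386 without Z325 replicate 1. The interaction gave 5, and 104 in DESeq2, 106 without a filter, 26 with at least 10 counts in every library and 0 to 61 on leaving out a library. The 4 fits in edgeR that gave 0 had 721 to 999 genes at an unadjusted p under 0.05. Each fit without a library left 1 library in that group, so a call gained or lost there is to be read beside these counts over all genes. The causes of these shifts were not tested.

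Replicate numbers were shared across groups, and deviations of same-numbered libraries correlated at -0.03 in HCT116 and 0.20 in NCI-H716. The labels name no pairing, and the numbers were not taken as pairs in the main fits. Whether same-numbered libraries shared an effect in NCI-H716 was not tested. With a replicate block the counts were 381 of 6491 genes tested in HCT116 and 12 of 7642 for the interaction. In NCI-H716 the block called 2397 of 14142, 1061 higher and 1336 lower. ABCB6, ABCC1, ABCC2 and ABCC3 then passed in NCI-H716 and 0 of the 4 in HCT116. In NCI-H716 the block also called 4 other ABC transporters lower, and 8 genes of the conjugation and glutathione list higher and 2 lower. It called 1 uptake or non-ABC efflux gene higher and 2 lower, 4 regulators higher and 1 lower, and 1 anchoring partner higher and 2 lower.

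ABCB6 in NCI-H716 passed in 8 of 14 alternatives. It did not pass in limma (adjusted p from 0.162 to 0.263), with all 8 libraries in 1 fit (0.0544), without control replicate 1 or with its readthrough gene summed. Some log2 fold changes below any threshold changed sign on leaving out 1 library. In HCT116, SLC19A2 ran from -0.029 without Z325 replicate 1 to 0.15 and was -0.022 without control replicate 1, and SLC22A4 ran from -2.57 to 0.24 without Z325 replicate 2. In NCI-H716, ABCC4 ran from -0.019 to 0.41 and ABCB8 from -0.48 to 0.011, with the reversed value without control replicate 1. There EZR ran from -0.24 to 0.010, SLC19A2 from -0.18 to 0.094 and SP3 from -0.28 to 0.070, reversed without control replicate 2. ABCB6 and ABCB1 in HCT116 had at most 12 and 90 counts in a library, which limits the precision of their values, and intervals cover these 2 libraries per group only.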
